A study of Mus musculus with 2 samples.

Results

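Erythroid transcripts were followed in liver RNA of mice of the BALB/c strain, taken 11 days after birth, in 1 wild-type library and 1 library labelled SRSF2-/-. The genes form a list of names set with earlier results of these data known, with no threshold on a value: the alpha-globins Hba-a1 and Hba-a2, the beta-globins Hbb-b1 and Hbb-b2, Alas2, Ahsp, Slc4a1, Klf1 and Gata1. Of these 9 genes among 26440 in the tables, 8 were matched to an accession, 6 had reads in either library, and Ahsp was not matched and is not analysed here. The series describes the deletion as restricted to the liver, and the mouse line or Cre driver behind it, the number of animals per library and whether erythroid cells carry the deletion are not stated in the labels. SRSF2 is a serine/arginine-rich splicing factor. With 1 library per genotype no replicate spread exists, so no p-value is given, and every difference describes these libraries and not the genotypes.

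The fetal liver is the main site of red cell production before birth, and this role passes to the bone marrow and spleen around and after birth. Erythroid precursors are switched on by the transcription factors GATA1 and KLF1, which activate the globin genes and ALAS2, the erythroid form of the first enzyme of heme synthesis. AHSP is a chaperone that holds free alpha-globin. SLC4A1, or band 3, is the chloride and bicarbonate exchanger of the red cell membrane and an anchor of its skeleton. Reticulocytes and young red cells have lost their nucleus and still hold globin mRNA, so bulk liver RNA carries transcripts of precursors and of blood left in the organ together. In bulk samples fewer cells of a type and less RNA per cell cannot be told apart.

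In the C57BL/6 reference the coding sequences of the adult globin copies are nearly identical, so each pair was summed and the values of single copies are uncertain. The copies of the BALB/c strain were not compared. In the GENCODE transcripts of the C57BL/6 reference, the coding sequences of Hba-a1 and Hba-a2 are 429 bases long and differ at 1 base, C381T, counted from the A of the start codon, with the base of Hba-a1 first. Those of Hbb-bs and Hbb-bt are 444 bases long and also differ at 1 base, C417T, with the base of Hbb-bs first. The windows around both positions show how little separates the copies, with the differing base in capitals.
Hba-a1, coding bases 361 to 401: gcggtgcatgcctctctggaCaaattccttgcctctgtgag
Hba-a2, coding bases 361 to 401: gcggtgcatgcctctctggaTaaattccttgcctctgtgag
Hbb-bs, coding bases 397 to 437: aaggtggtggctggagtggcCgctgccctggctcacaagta
Hbb-bt, coding bases 397 to 437: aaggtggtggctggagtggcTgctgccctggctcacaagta
The untranslated parts, which reads also cover, were not compared. How the authors assigned reads that fit both copies is not stated in the labels or file headers.

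In the same reference, the control regions of the globin copies are less alike than their coding parts in the beta cluster, and nearly the same in the alpha cluster. RefSeq windows of 250 bases before a gene start (GRCm38.p6, a later build than the mm9 the submitters name) were found for Hba-a1, Hba-a2, Hbb-bs, Hbb-bt, Alas2, Klf1 and Gata1. The Gata1 window, chrX:7967911-7968160, lies inside the span of the gene, chrX:7959260-7976663, and not before its outermost start. The windows of Hba-a1 and Hba-a2 share an unbroken run of 247 bases, offset by 3, and those of Hbb-bs and Hbb-bt share at most 14. Letters were searched on both strands because GATA1, KLF1 and the general promoter factors are known to bind such letters: the GATA motif (read as AGATAA or AGATAG, or as TGATAA or TGATAG), the CACCC motif (read as CCACACCC and as the looser CCNCNCCC, which includes it), CCAAT and TATAAA. The windows of 1 alpha-globin gene, both beta-globin genes and Alas2, the transcripts with lower levels in knockout liver, are shown with all matches in capitals.
Hba-a1, chr11:32283422-32283671, plus strand: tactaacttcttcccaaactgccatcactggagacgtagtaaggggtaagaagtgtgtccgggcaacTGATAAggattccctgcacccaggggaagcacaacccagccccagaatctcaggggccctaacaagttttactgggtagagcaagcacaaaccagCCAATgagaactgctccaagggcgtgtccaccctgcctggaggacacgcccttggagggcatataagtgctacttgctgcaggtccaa
Hbb-bs, chr7:103827929-103828178, minus strand: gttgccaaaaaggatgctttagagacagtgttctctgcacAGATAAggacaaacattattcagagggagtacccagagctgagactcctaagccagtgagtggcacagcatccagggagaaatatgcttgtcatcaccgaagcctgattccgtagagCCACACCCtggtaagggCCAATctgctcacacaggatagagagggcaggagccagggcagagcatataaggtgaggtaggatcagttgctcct
Hbb-bt, chr7:103813924-103814173, minus strand: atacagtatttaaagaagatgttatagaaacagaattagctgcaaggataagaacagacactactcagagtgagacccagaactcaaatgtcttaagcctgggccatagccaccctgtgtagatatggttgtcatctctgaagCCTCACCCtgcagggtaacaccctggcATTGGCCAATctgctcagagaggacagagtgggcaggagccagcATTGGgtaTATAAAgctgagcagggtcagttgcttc
Alas2, chrX:150547167-150547416, plus strand: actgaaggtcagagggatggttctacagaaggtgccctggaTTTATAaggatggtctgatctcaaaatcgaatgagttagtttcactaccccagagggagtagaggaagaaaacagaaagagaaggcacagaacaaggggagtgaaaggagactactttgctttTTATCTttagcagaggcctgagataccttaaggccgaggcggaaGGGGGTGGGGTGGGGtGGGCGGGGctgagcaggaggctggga

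The GATA letters lay 183 bases before the start of Hba-a1, 186 before Hba-a2, 210 before Hbb-bs, 86 before Alas2 and 80 before Klf1. They were present in 26.5% of all 32851 promoter windows. The exact CACCC letters stood before Hbb-bs alone among these 7 genes, at 93 bases, and in 3.20% of all windows. The looser letters stood once before Hbb-bt, at 107 bases, and in 4 overlapping or neighbouring places before Alas2. They also stood in 3 places in the Gata1 window, but they occur in 45.9% of all windows. CCAAT stood before both alpha-globin genes, both beta-globin genes and Klf1, against 33.9% of all windows. TATAAA stood 28 bases before Hbb-bt on its own strand and 209 bases before Alas2 on the other strand, against 12.4% of all windows. A match is a description of letters and was not tested as a binding site.

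**Figure D1:**
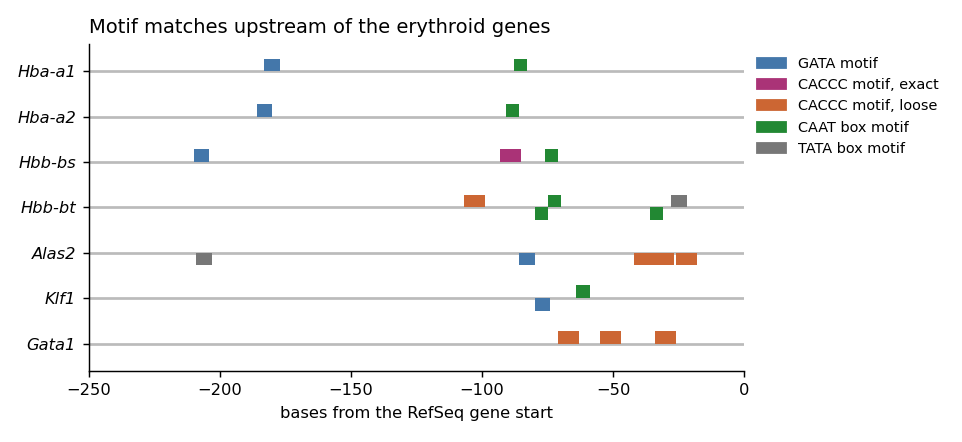
Motif matches in the 250 bases before the RefSeq start of 7 erythroid genes; the x axis is the distance from the start in bases, boxes above a line are on the gene's own strand and boxes below it on the other strand. The 2 alpha-globin genes carry the same matches, offset by 3 bases, and the beta-globin genes differ in theirs. The Gata1 window lies inside the span of its gene and not before its outermost start.

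Each library held about the same number of reads, 22407743 for wild-type and 22111605 for knockout liver. Levels are FPKM as the authors deposited them, a read count corrected for transcript length and depth, and ratios carry exact 95% binomial intervals that reflect counting error alone. Srsf2, the targeted gene, stood at 27.9 FPKM in wild-type and 11.8 FPKM in knockout liver. Of 12477 genes with 1 FPKM or more in either library, 19.2% were higher by 2-fold or more and 2.95% lower by 2-fold or more in knockout liver on the log2(FPKM + 1) scale, which understates the change of low genes. The median log2 ratio over these genes was 0.55, so ratios are given as deposited and then centred on that median. After centring, 5.67% were higher by 2-fold or more and 6.66% lower by 2-fold or more. The libraries also differed in Xist, at 13004 and 6 reads, in the Y-linked Ddx3y, at 0 and 859 reads, and in a list of 10 pancreas and skeletal muscle transcripts that summed to 0.770 and 563 FPKM. The animals' sex and the tissue taken therefore cannot be told apart from genotype.

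Adult globin and Alas2 transcripts were lower in the knockout liver, while Slc4a1 was somewhat higher and Klf1 had equal read counts. The alpha-globins together stood at 0.567 of their wild-type level and the beta-globins at 0.748. Alas2 stood at 0.542 of its wild-type level, Slc4a1 at 1.35 and Klf1 at 1.01. Counting the alpha-globin sum, the beta-globin sum and the single genes Alas2, Slc4a1, Klf1 and Gata1 as 6 readouts, 0 were higher or lower by 2-fold or more as deposited. After centring, 2 of the 5 readouts with at least 1 FPKM in either library were lower by 2-fold or more, the alpha-globin sum and Alas2, and 0 were higher. All 6 readouts lay below the median ratio of all genes. By counting error alone, 3 readouts had an interval below 1, 1 had an interval above 1 and 2 had an interval that held 1. The same rule put 71.7% of the 16097 genes with 10 or more reads above 1 and 9.56% below 1.

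**Figure D2:**
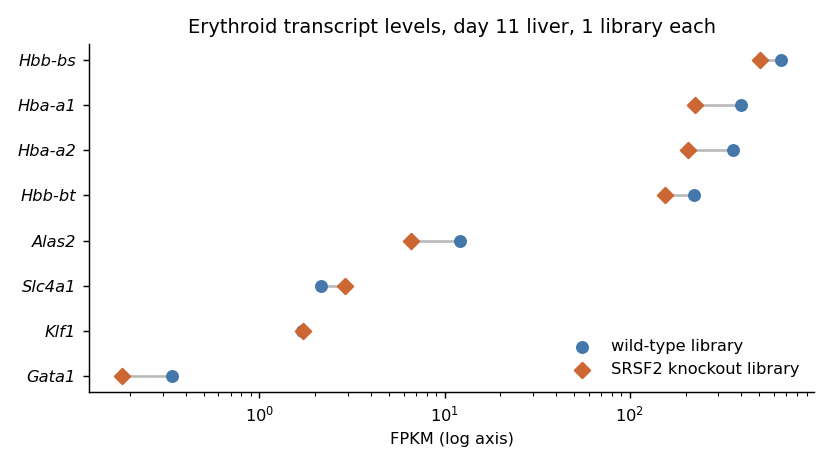
FPKM (log axis) of 8 erythroid transcripts in wild-type (circles) and knockout liver (diamonds), 1 library each. Globins lie between 155 and 658 FPKM, Alas2 near 10 and the others below 3, and the Klf1 symbols overlap at 1.70 and 1.72 FPKM.

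Hba-a1, an adult alpha-globin gene, had 5915 reads or 399 FPKM in wild-type liver and 3287 reads or 224 FPKM in knockout liver. Hba-a2, its near-identical neighbour, had 5391 reads or 361 FPKM and 3044 reads or 206 FPKM. Both copies were lower in knockout liver, at 0.562 (0.539 to 0.587) and 0.571 (0.546 to 0.597) of the wild-type level. Their sum stood at 759.9 and 431 FPKM, a log2 ratio of -0.82, or -1.37 after centring. Only 3.89% of all tested genes had a lower log2 ratio than the alpha-globin sum.

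The accessions that carry the symbols Hbb-b1 and Hbb-b2 today were listed at 0 reads in both libraries. By counting alone, a 0 allows up to 3 reads, or 0.134 RPM in wild-type and 0.136 RPM in knockout liver. That limit need not hold for Hbb-b1 and Hbb-b2, which belong to a haplotype other than that of the reference genome. The beta-globin reads stood instead on Hbb-bs and Hbb-bt, the adult beta-globin genes of the haplotype found in C57BL/6, the strain of the reference genome. BALB/c mice are known to carry the other haplotype, whose genes are Hbb-b1 and Hbb-b2. Which haplotype these animals carried, and how many reads were lost to mismatches with the reference, was not tested. The beta-globin sum therefore consists of the reads of Hbb-bs and Hbb-bt alone, and both its level and its ratio between libraries rest on taking in these genes.

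Hbb-bs had 11152 reads or 658 FPKM in wild-type and 8417 reads or 503 FPKM in knockout liver. Hbb-bt had 3703 reads or 222 FPKM and 2562 reads or 155 FPKM. Both were lower in knockout liver, at 0.764 (0.742 to 0.786) and 0.700 (0.666 to 0.737) of the wild-type level. The sum stood at 879 and 658 FPKM, a log2 ratio of -0.42 as deposited and -0.97 after centring. It thus came close to 2-fold lower after centring without reaching it. As the table divides the reads, the order of FPKM in both libraries was Hbb-bs, Hba-a1, Hba-a2 and Hbb-bt. The 4 adult globin transcripts took 0.117% of the wild-type reads (0.115 to 0.118) and 0.0783% of the knockout reads (0.0771 to 0.0795).

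Globins of the embryo were not detected. Hbb-y, Hbb-bh1 and Hba-x, which serve the yolk sac lineage, and Hbb-bh2 had 0 reads in both libraries. The theta-globin genes Hbq1a and Hbq1b had 1 and 6 reads in wild-type and 0 and 5 in knockout liver. As the reads were counted, the globin message of both livers was therefore that of the adult genes. The limit of 3 reads for each gene at 0 is by counting alone. Whether reads of embryonic beta-globins were lost to mismatches with the reference was not tested.

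**Figure D3:**
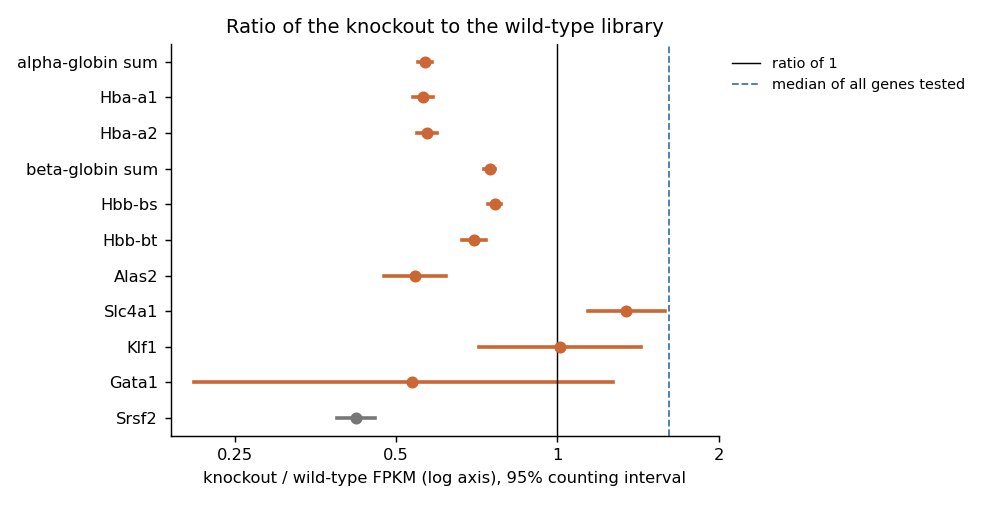
Ratio of knockout to wild-type FPKM (log axis) for the globin sums, each globin copy, the other erythroid genes and Srsf2, with exact 95% counting intervals as bars. The solid line is a ratio of 1 and the dashed line is the median ratio of 1.62 (no pseudocount) over tested genes above 0 in wild-type liver; globins and Alas2 lie left of both, Slc4a1 lies between them, and the interval of Gata1 spans 0.210 to 1.27.

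Alpha-globin was lower by more than beta-globin, as counted on Hbb-bs and Hbb-bt. Beta-globin reads lost to mismatches with the reference could alter the comparison, and their number was not tested. The beta to alpha ratio, computed per length within a library and so free of any scaling of that library, was 1.16 (1.13 to 1.19) in wild-type and 1.53 (1.48 to 1.58) in knockout liver. It was 1.32 times higher in knockout liver, with a counting interval of 1.27 to 1.37. As the table divides the reads, the ratio between the copies of a pair changed less. Hba-a1 stood at 1.11 times Hba-a2 in wild-type and 1.09 times in knockout liver, a change of 0.984 (0.925 to 1.05), and Hbb-bs at 2.97 and 3.24 times Hbb-bt, a change of 1.09 (1.03 to 1.16). Taking only the copy with more reads of each pair, the beta to alpha ratio was 1.65 and 2.24, so the knockout value was again the higher.

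Alas2, which condenses glycine and succinyl-CoA in erythroid mitochondria, had 638 reads or 12.2 FPKM in wild-type and 342 reads or 6.59 FPKM in knockout liver. The ratio was 0.542 (0.474 to 0.620), with a log2 ratio of -0.79, or -1.35 after centring, and 4.02% of tested genes lay lower. Alas2 and alpha-globin were lower by about the same factor. Alas2 stood at 1.60% of the alpha-globin level in wild-type and 1.53% in knockout liver, a change of 0.957 (0.834 to 1.10). Against beta-globin the change was 0.725 (0.633 to 0.830).

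The ubiquitous form Alas1, which serves the cytochromes of hepatocytes, stood at 50.4 and 83.9 FPKM. Alas2 was 24.1% of Alas1 in wild-type and 7.86% in knockout liver. As deposited, the remaining heme pathway did not share the lower level of Alas2. Of 15 measured genes of heme synthesis and mitochondrial iron, a pathway hepatocytes run too, 1 was higher by 2-fold or more and 0 were lower (0 and 0 after centring). Their median log2 ratio was 0.25, or -0.31 after centring. The gene past 2-fold was Uros, uroporphyrinogen III synthase, at 2.83 and 8.89 FPKM. Fech, which inserts the iron in the last step, stood at 38.6 and 42.9 FPKM. Over all genes 19.2% were higher and 2.95% lower by 2-fold or more (5.67% and 6.66% after centring). Of the 15 genes of this list, 11 had a counting interval above 1, 0 below 1 and 4 held 1. The shares among all genes were 71.7% above and 9.56% below, so the list lay near the background of the library.

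Slc4a1 had 260 reads or 2.15 FPKM in wild-type and 346 reads or 2.90 FPKM in knockout liver. Its ratio of 1.35 (1.14 to 1.59) lay above 1, unlike that of the globins, and its log2 ratio was 0.31 as deposited but -0.25 after centring, so the sign depends on the scaling. Within a library, Slc4a1 stood at 0.283% of the alpha-globin level in wild-type and at 0.674% in knockout liver, 2.38 times higher (2.01 to 2.81). Against Alas2 it was 2.48 times higher (2.01 to 3.07).

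Other membrane genes of the red cell were, like Slc4a1, at or above their wild-type level in most cases. Of 21 measured membrane and blood group genes, only 7 reached 1 FPKM in either library, with 1 higher by 2-fold or more and 0 lower (1 and 0 after centring). Their median log2 ratio was 0.51, or -0.05 after centring, close to that of all genes. The gene past 2-fold was Cd24a, at 10.1 and 59.4 FPKM, a surface glycoprotein that epithelial and immune cells also make. Of the 20 genes with 10 or more reads, 10 had a counting interval above 1, 0 below 1 and 10 held 1, against 71.7% above and 9.56% below among all genes. For the 2-fold rule the shares of all genes were 19.2% higher and 2.95% lower (5.67% and 6.66% after centring). The skeleton gene Sptb, encoding a spectrin, had 111 reads in wild-type and 118 in knockout liver. The linker genes Epb42 and Dmtn had 31 and 33 reads against 60 and 67.

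Klf1, the activator of adult beta-globin, had 69 reads in each library, at 1.70 and 1.72 FPKM. The ratio of 1.01 had an interval of 0.714 to 1.43, and the log2 ratio was 0.01 as deposited and -0.54 after centring. Relative to alpha-globin Klf1 was 1.79 times higher in knockout liver (1.26 to 2.53), while relative to beta-globin the change of 1.35 had an interval that held 1 (0.954 to 1.92). Gata1, the master regulator of the lineage, had 17 reads or 0.337 FPKM in wild-type and 9 reads or 0.181 FPKM in knockout liver. The interval of its ratio, 0.210 to 1.27, holds both the fold of the globins and no change, so no difference was detectable at this depth.

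The wider set of erythroid regulators had no common direction. Of 18 measured genes, 12 reached 1 FPKM, and 2 of them were higher by 2-fold or more and 0 lower as deposited (0 and 2 after centring), with a median log2 ratio of 0.52 that is close to the 0.55 of all genes. The higher ones were Lmo2, a bridging protein of the GATA1 and TAL1 complex that endothelium also makes, at 2.72 and 7.002 FPKM, and Foxo3, a stress-responsive factor active in many cells, at 3.44 and 9.23 FPKM. The lower ones after centring were Stat5b, a transducer of erythropoietin and growth hormone signals, at 17.2 and 8.89 FPKM, and Sox6, a repressor of embryonic globin, at 1.25 and 0.635 FPKM. The 2-fold rule called 19.2% of all genes higher and 2.95% lower (5.67% and 6.66% after centring). Of the 18 regulators, 8 had a counting interval above 1, 4 below 1 and 6 held 1, against 71.7% above and 9.56% below among all genes. The lineage factors Tal1, Gfi1b, Nfe2 and Hemgn were below 1 FPKM in both libraries. Their counts were 81 and 87 for Tal1, 11 and 16 for Gfi1b, 35 and 28 for Nfe2, and 21 and 29 for Hemgn, and each interval of the ratio held 1.

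Epo, the hormone that drives red cell production and is made by the liver early in life, had 45 reads or 2.40 FPKM in wild-type and 32 reads or 1.73 FPKM in knockout liver, with an interval of the ratio from 0.441 to 1.16. Its receptor Epor, an erythroid surface gene, had 71 and 74 reads. Of the 9 genes of erythropoietin, stem cell factor and iron uptake, 8 reached 1 FPKM, with 1 higher by 2-fold or more and 2 lower as deposited (0 and 2 after centring). The higher gene was Jak2, the kinase behind the erythropoietin receptor, at 2.998 and 7.52 FPKM. The lower genes were Tfr2, an iron-sensing transferrin receptor abundant in hepatocytes, at 113.5 and 48.6 FPKM, and Steap3, a ferrireductase, at 10.4 and 3.94 FPKM. Tfrc, the transferrin receptor through which precursors take up iron, stood at 22.2 and 17.9 FPKM. Of these 9 genes, 2 had a counting interval above 1, 3 below 1 and 4 held 1, against 71.7% above and 9.56% below among all genes. The 2-fold rule called 19.2% of all genes higher and 2.95% lower (5.67% and 6.66% after centring).

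Enzymes and maturation genes of red cells, many of which are also made by other liver cells, were mostly higher, as were most genes of this library. Of 19 measured genes, 16 reached 1 FPKM, with 5 higher by 2-fold or more and 0 lower (2 and 0 after centring) and a median log2 ratio of 0.85, or 0.30 after centring. Over all genes 19.2% were higher by 2-fold or more. Of the 18 list genes with 10 or more reads, 15 had a counting interval above 1, against 71.7% of all genes. Blvrb, a flavin and biliverdin reductase, stood at 59.7 and 201 FPKM. The erythroid ubiquitin ligase gene Trim58 had 3 reads in each library, and Trim10 had 12 and 21. Genes that clear hemoglobin and heme stood on both sides. Hp, the plasma carrier haptoglobin, stood at 3630.3 and 1950.1 FPKM, and Hmox1, the heme-degrading oxygenase, at 29.5 and 100.2 FPKM. Of these 13 genes 6 were higher by 2-fold or more and 0 lower (1 and 2 after centring). Among all tested genes the shares were 19.2% and 2.95% (5.67% and 6.66% after centring).

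**Figure D4:**
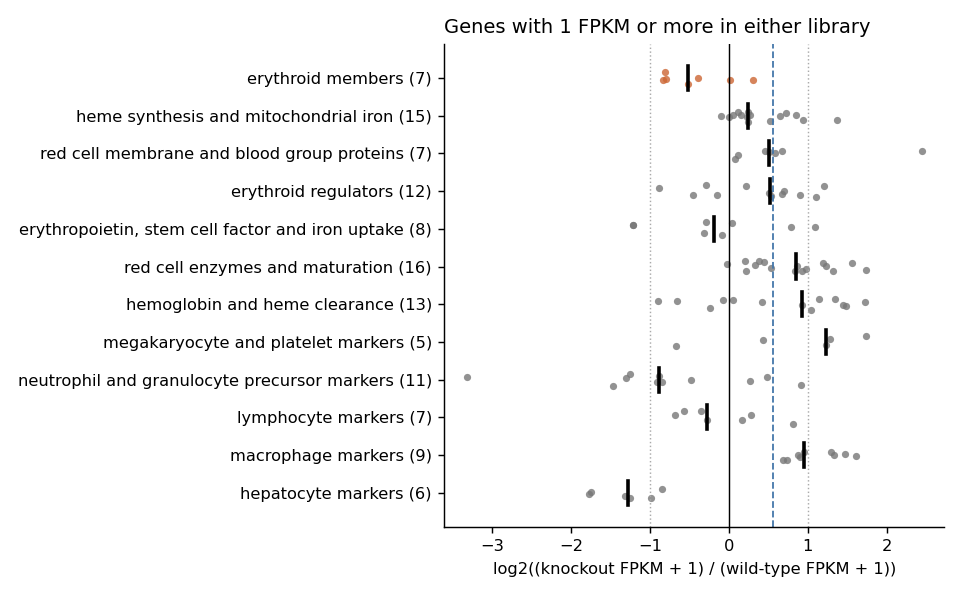
log2((knockout FPKM + 1) / (wild-type FPKM + 1)) of genes with at least 1 FPKM in either library, by list; each point is a gene, black bars are list medians, and numbers in brackets count the genes. The erythroid row holds Hbb-bs and Hbb-bt with the listed genes. Dotted lines mark 2-fold and the dashed line the median of all genes, 0.55. Globins, Alas2, all hepatocyte markers and most neutrophil markers lie left of 0, while macrophage markers lie right of it.

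Ratios between transcripts of one library, which no scaling changes, differed among the erythroid genes. Alas2 took a share of alpha-globin that was the same in both libraries within its counting interval. Klf1 and Slc4a1 took a larger share of it in knockout liver, by 1.79 and 2.38 times. Gata1, with few reads, had a change of 0.945 and an interval of 0.371 to 2.24. These pairs were chosen after the values were known and describe these libraries.

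**Figure D5:**
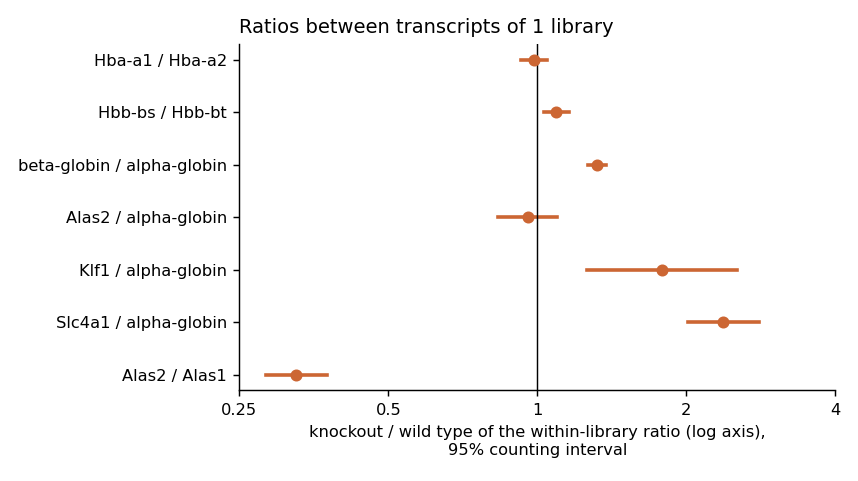
Change from the wild-type to the knockout library in the ratio of FPKM of 2 transcripts of the same library (log axis), with exact 95% counting intervals. Alas2 relative to alpha-globin lies at 1 within its interval, and beta-globin, Klf1 and Slc4a1 relative to alpha-globin lie above it.

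Markers of other blood cells lay on both sides of their wild-type level. For comparison, 19.2% of all tested genes were higher and 2.95% lower by 2-fold or more (5.67% and 6.66% after centring). Counting intervals lay above 1 for 71.7% and below 1 for 9.56% of all genes with 10 or more reads. Markers of neutrophils and their precursors summed to 248 FPKM in wild-type and 125 FPKM in knockout liver, with 4 of 11 genes lower by 2-fold or more and 0 higher (8 and 0 after centring). S100a9, a neutrophil calcium-binding protein, stood at 131 and 72.9 FPKM and made up most of that sum in both libraries. The 11 genes were not uniform: 8 had a counting interval below 1 and 3 above it. Prtn3 and Mpo, granule genes of early precursors, stood at 0.0634 and 0.154 of their wild-type level, and Retnlg, Cebpe and Mmp8 at 2.10, 1.87 and 1.51. Lymphocyte markers summed to 16.6 and 13.2 FPKM, with 0 of 7 tested genes past 2-fold (0 higher and 2 lower after centring). Markers of megakaryocytes and platelets, which share GATA1 with the erythroid lineage, summed to 17.0 and 40.0 FPKM, with 3 of 5 tested genes higher and 0 lower (1 and 1 after centring). Pf4 and Clec1b, at 19.0 and 13.3 FPKM in knockout liver, made up most of the knockout sum. These markers had no common direction: of 12 genes, 5 had a counting interval above 1, 1 below 1 and 6 held 1. The gene below 1 was Ppbp, at 0.534 (0.38 to 0.74) of its wild-type level. Macrophage markers summed to 336 and 828 FPKM, with 4 of 9 genes higher and 0 lower (1 and 0 after centring). Mast cell and basophil markers, which could also carry Gata1, summed to 2.50 and 11.6 FPKM. The 1 tested gene, Hdc, was higher by 2-fold or more, also after centring, and made up most of that sum at 2.08 and 10.2 FPKM. Of 5 genes with 10 or more reads, 4 had a counting interval above 1, 0 below 1 and 1 held 1. The list was not uniform: Tpsb2 had 1 and 12 reads and Cma1 0 and 10, while Prss34 had 7 and 0 and Mcpt8 2 and 0. Fcer1a had 0 reads in both libraries. Markers of blood stem and progenitor cells summed to 19.0 and 30.7 FPKM, with 2 of 6 tested genes higher and 0 lower (0 and 1 after centring), a median log2 ratio of 0.84, and 6 of 9 genes with an interval above 1. Among them, Kit, the stem cell factor receptor, had 150 and 354 reads, Flt3 had 17 and 81, and Cd34, which endothelium also makes, had 106 and 344. The list was not uniform: the interval of Hlf, at 1204 and 695 reads, lay below 1, and that of Meis1, at 207 and 178, held 1. Markers of hepatocytes summed to 95597 and 45191 FPKM, with 4 of 6 genes lower by 2-fold or more and 0 higher (6 and 0 after centring). All 6 had a counting interval below 1, among them Alb at 0.506 and Apoa1 at 0.554 of the wild-type level. A lower level was thus not particular to globins and Alas2. The 12 genes of cell division had 0 members past 2-fold (0 higher and 1 lower after centring). The part of blood left in the organ, of liver cell composition and of the other tissues' transcripts in the lower globin and Alas2 levels was not tested.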

How the data were processed

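Liver RNA of 1 wild-type and 1 SRSF2-/- library (groups from the genotype label) was extracted with Trizol and sequenced on an Illumina HiSeq2000, per the labels' protocols and the series' design text. The submitters' processing notes name Bowtie 0.12.2 and mm9. For the counting program, annotation release, use of strand and treatment of multiply mapping reads, the sources used here give nothing.

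The deposited counts are whole reads per RefSeq accession, and the deposited FPKM are the authors' normalization by length and library size, per the file headers. Accessions, version dropped, were named through a RefSeq table (GRCm38.p6) and GENCODE, for 23419 of 26449, and summed per gene. The other 3030 took 1.99% and 1.98% of the reads.

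Differences were measured as log2 of knockout over wild-type FPKM, 1 added to each, in genes with 1 FPKM in either library, with a rule of 2-fold. Ratio intervals are exact 95% Clopper-Pearson intervals on the reads, multiplied by 1.012, the FPKM worth of 1 read in the knockout over the wild-type table. Intervals of within-library ratios are exact conditional intervals of the odds ratio of reads. A count of 0 allows up to 3 reads. Amplified reads are not independent molecules, so these cover counting error only. The genes and 16 further lists were chosen with earlier results of these data known. The text could name any gene of those lists. The following listed genes were not matched and are not analysed here: Ahsp, Slc25a37, Gypc, Myb, E2f2, Cd68 and Csf1r. Some genes of the membrane list enter its counts but are not reported by name here. Hbb-bs and Hbb-bt entered the beta-globin sum after the values were seen. Alternatives changed the pseudocount, filter, scaling, size rule and handling of copies. The code was tested on simulated data. The tools were scipy 1.17.1, pandas 2.3.3, numpy 2.4.6 and matplotlib 3.10.9 under Python 3.11.15.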

Additional observations from a re-analysis of the deposited data

How the results depend on the processing

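The globin sums and Alas2 were lower in knockout liver under every alternative run, with log2 ratios from -1.37 to -0.81 for alpha-globin, -0.97 to -0.39 for beta-globin and -1.35 to -0.57 for Alas2. Slc4a1 ranged from -0.25 to 0.41 and Klf1 from -0.54 to 0.02. No readout changed sign among those past 2-fold as deposited, since there were 0. Centring on the median gave -1.37 for alpha-globin and -0.97 for beta-globin, and rescaling without the 20 most abundant genes of each library gave -1.17 and -0.77. Hbb-bt alone gave -0.51 for beta-globin. The number of readouts lower by 2-fold or more was 0 as deposited and 2 after centring, without the most abundant genes, or with a 1.5-fold rule. The beta to alpha ratio was 1.65 in wild-type and 2.24 in knockout liver from 1 copy of each, and 1.31 and 1.73 in reads not divided by length.

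Over all genes, the counts higher by 2-fold or more and lower were 2396 and 368 as deposited. The higher count was 3797 with a pseudocount of 0.1, 3628 on the TPM scale and 3870 in RPM. The counts were 786 and 232 with a pseudocount of 5, 708 and 831 after centring, 1555 and 650 without the most abundant genes, 5914 and 687 with a 1.5-fold rule, and 344 and 94 with a 4-fold rule. Rescaling without pancreas and muscle reads, added after seeing the data, gave -0.82 and -0.42 for the globin sums. The 8 single erythroid genes, Alas2, Slc4a1 and Klf1 included, stayed within their counting interval in 74 of 88 cases, and list counts within 1.5 times in 337 of 416. The 14 cases outside it came from centring, from rescaling without the most abundant genes, and from Alas2 with a pseudocount of 5. After centring, only Gata1 of these genes stayed inside, so the ratios depend on the scaling. No paired analysis was possible because each genotype has 1 library, and no library could be left out. Depth limits Gata1, Trim58 and the other genes with few reads.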
